A study of Mus musculus with 12 samples.

Results

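The MYC, MAX and MXD network is described here through 9 genes, Myc, Max, Mxi1, Mxd1, Mxd3, Mxd4, Mnt, Mga and Mlx, taken by their symbols from the 19505 genes that the array measured. Within a gene, the probe set was to be chosen by its mean signal over the 12 arrays, the highest being taken, but each of the 9 had 1 probe set, so that all 9 were measured and no value decided between probe sets. The levels and differences of the 9 were known from earlier results of these data when they were put together, and 8 of them lay above background in at least 1 group. The proteins of this network bind DNA as pairs of basic helix-loop-helix leucine zipper factors. MYC paired with MAX binds the E-box sequence CACGTG and promotes transcription of genes of growth and metabolism. The MXD proteins, MXI1 among them, and MNT compete for MAX and, through SIN3 corepressors, repress genes with the same sequence. MGA also pairs with MAX, and MLX is a MAX-like partner that pairs with MondoA and ChREBP in glucose sensing as well as with MXD1, MXD4 and MNT. In macrophages, bacterial products are known to change the level of Myc transcripts within hours.

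RNA came from RAW 264.7 cells, a mouse macrophage-like line that was established from a tumour induced by Abelson leukaemia virus, so its growth control is that of a transformed line. The 12 arrays formed 4 groups of 3, all of which received lipopolysaccharide (LPS, a bacterial outer membrane component) at 500 ng/mL and were cultured for 6 hours. The groups were inulin (a plant fructan) at 500 µg/mL with TsSP at 50 µg/mL and LPS, TsSP with LPS, inulin with LPS, and LPS alone; TsSP is a helminth product by the design text, and the abbreviation is used as the labels give it. No array without LPS was used, so each difference below is a difference within LPS-stimulated cells, and in RNA from whole cultures fewer cells with a transcript and less transcript per cell cannot be told apart.

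Background was set on each array at its brightest background probe, 6.16 to 6.28 on the log2 scale, and 8771 to 9059 genes per array exceeded it; array medians were 5.16 to 5.3. Exon control probe sets had medians of 11.22 to 11.36 on the 6 arrays with TsSP, against 11.00 to 11.21 on the 6 without, and the part of this shift in the small differences below was not tested beyond the other scalings given with them. Of 13 measured macrophage markers, Csf1r, Itgam, Spi1 and Lyz2 among them, 13 lay above background on all arrays. In limma, 4 of the 13 were called higher with TsSP against LPS alone, Itgam, Lyz2, Laptm5 and Tyrobp. Adgre1 was called lower, at 2.08-fold. Among all genes above background in at least 1 group, 21.6% were called higher and 13.3% lower. All 8 measured markers of T, B and NK cells and all 6 of dendritic cells lay below background on every array. Of 7 markers of neutrophils and mast cells, S100a8 was above background on the 6 arrays with TsSP and below it on the others. The other 6, Mpo, Elane, S100a9, Cpa3, Kit and Mcpt4, were below it on all 12. The summed signal of this list was 8.59 to 9.35 log2 units with inulin and TsSP and 8.96 to 9.08 with TsSP, against 6.94 to 6.99 with inulin and 6.85 to 7.10 with LPS alone. S100a8 by itself had a mean of 8.78 with TsSP and 4.08 with LPS alone, so the sum with TsSP was mostly this gene. Of 8 markers of fibroblasts and epithelia, 1, Dcn, was above background on all arrays. The part of these genes in the results below was not tested. The number of arrays limits the precision, and since separate cultures are not stated for arrays that share a group, p-values measure the spread between these samples only, which may be technical.

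With TsSP present, the antagonist genes Mxi1, Mnt and Mxd4 rose, the antagonist gene Mxd1 fell, and so did Max and, by less, Myc. Mlx rose slightly, Mga did not pass the test and Mxd3 was below background. The same 7 genes passed the test with TsSP against LPS alone and with TsSP added to inulin, comparisons that share no array but 1 pooled estimate of the spread, and moved the same way in both. In each comparison limma called 7 of the 9 genes, 4 higher and 3 lower, at an adjusted p under 0.05 over all 19505 genes. Over all genes, the percentage called was 18.1% for TsSP against LPS alone, 17.6% for inulin and TsSP against LPS alone (10.3% higher and 7.3% lower) and 16.7% for TsSP added to inulin. Among the 9022 genes above background in at least 1 group it was 34.9% for TsSP against LPS alone and 32.4% for TsSP added to inulin. The 6 arrays with TsSP and the 6 without did not overlap in 7 of the 9 genes, and in 18% of all genes. Genes called the same way both against LPS alone and with TsSP added to inulin made up 12.9% of all genes. The F test over the 4 groups called 7 of the 9, against 18.7% of all genes. The genes were proposed with earlier results of these data known, and the adjusted p-values below are over all genes, not over the 9.

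**Figure D1:**
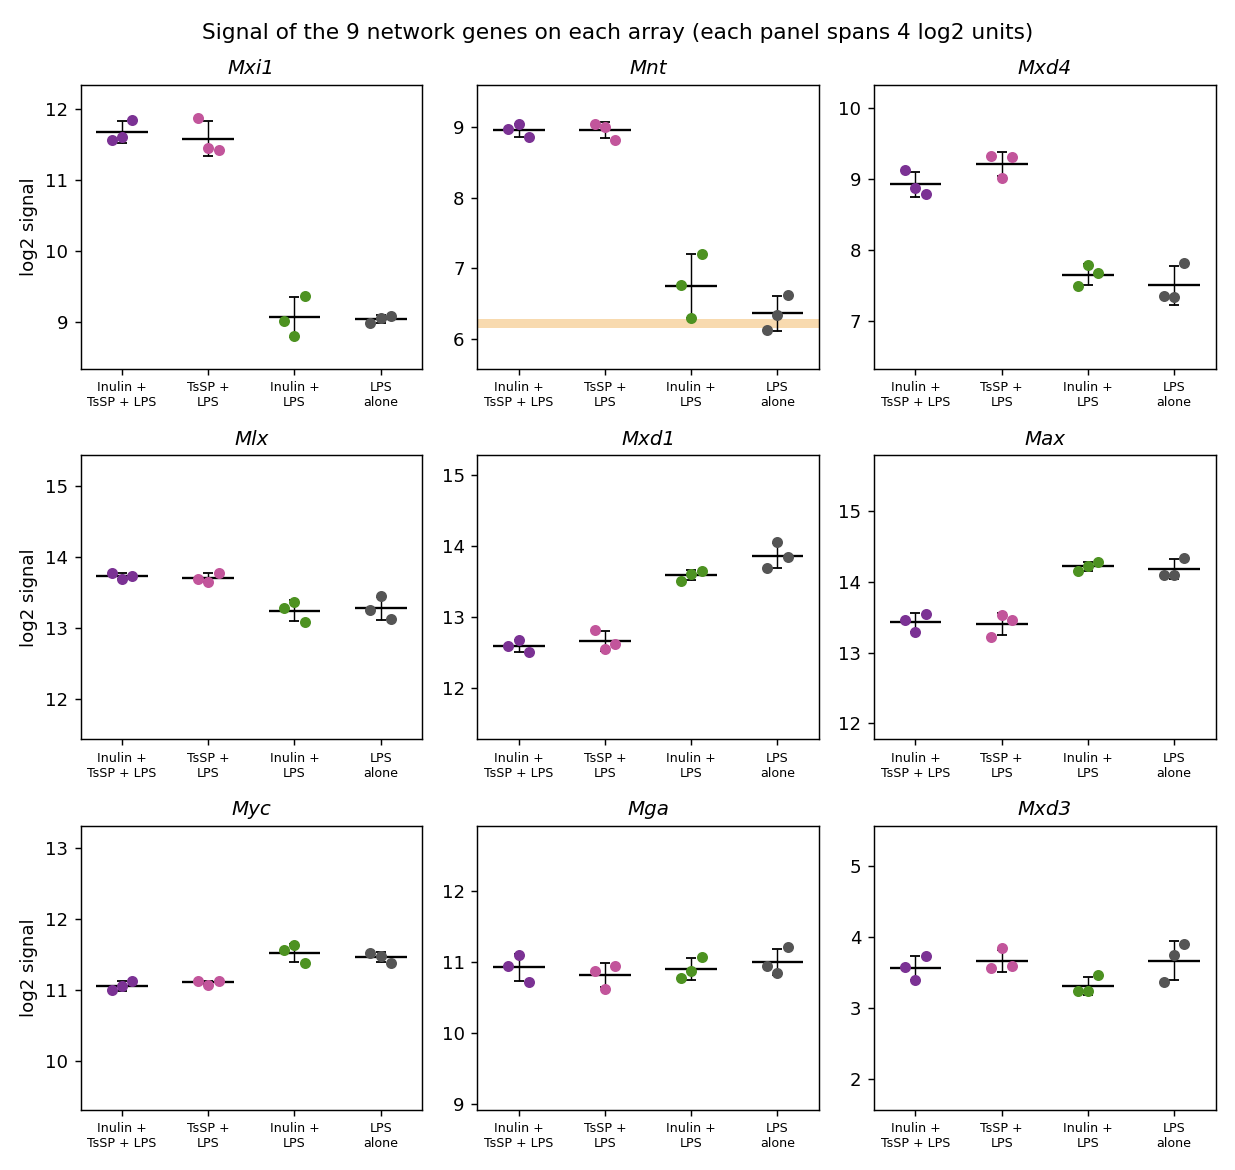
Log2 signal of each network gene on each of the 12 arrays, with 3 points per group in the order inulin with TsSP and LPS, TsSP with LPS, inulin with LPS, and LPS alone; horizontal lines are group means, bars are 1 SD and the orange band in the Mnt panel is the range of the brightest background probe. In 7 of 9 panels the 6 arrays with TsSP lie on one side of the 6 without, above them for Mxi1, Mnt, Mxd4 and Mlx and below them for Mxd1, Max and Myc.

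The promoters of the 4 genes that rose are shown as places to look for the network's own recognition sequence. Those of Max and Mxd1, which fell, were searched as well but are not printed. Each stretch is the 250 bases before a RefSeq start site (build GRCm38.p6), read 5′ to 3′ on the gene's strand, with CACGTG, or ACGTG where no CACGTG is present, in capitals. ACGTG is the core of the site of hypoxia-inducible factors (HIF) and is contained in CACGTG, so every CACGTG is also an ACGTG match on both strands.
Mnt, chr11:74830674-74830923, plus strand: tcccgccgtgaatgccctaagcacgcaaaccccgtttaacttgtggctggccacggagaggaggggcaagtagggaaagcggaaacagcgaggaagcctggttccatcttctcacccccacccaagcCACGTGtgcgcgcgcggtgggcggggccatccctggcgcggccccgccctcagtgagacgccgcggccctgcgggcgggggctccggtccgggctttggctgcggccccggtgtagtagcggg
Mxd4, chr5:34187711-34187960, minus strand: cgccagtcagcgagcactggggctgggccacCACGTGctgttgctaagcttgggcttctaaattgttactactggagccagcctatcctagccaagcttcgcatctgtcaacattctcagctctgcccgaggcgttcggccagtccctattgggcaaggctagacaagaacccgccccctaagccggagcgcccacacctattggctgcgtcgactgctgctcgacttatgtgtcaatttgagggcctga
Mlx, chr11:101087040-101087289, plus strand: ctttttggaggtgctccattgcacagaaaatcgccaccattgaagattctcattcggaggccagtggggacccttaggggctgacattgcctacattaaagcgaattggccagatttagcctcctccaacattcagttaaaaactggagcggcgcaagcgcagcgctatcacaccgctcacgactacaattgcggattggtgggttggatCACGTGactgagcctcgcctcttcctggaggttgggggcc
Mxi1, chr19:53329163-53329412, plus strand: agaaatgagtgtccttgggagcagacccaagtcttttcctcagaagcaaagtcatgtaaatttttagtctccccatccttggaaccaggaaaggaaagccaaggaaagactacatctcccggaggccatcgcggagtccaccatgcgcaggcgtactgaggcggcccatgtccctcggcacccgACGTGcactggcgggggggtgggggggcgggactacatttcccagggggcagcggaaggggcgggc

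RefSeq gave 10 windows, each of 250 bases before and 50 after a start site, for 8 of the 9 genes, Mxi1 having 3. CACGTG, its own reverse complement, was found in 4 windows, those of Mnt, Mxd4, Mlx and Max, and in 7.15% of all 32851 windows of the table. It began 123 bases before the start site in Mnt, 219 in Mxd4, 40 in Mlx and 3 in Max. The Max gene fell with TsSP, so the sequence was present in windows of genes that moved either way. ACGTG on either strand was found in 7 of the 10 windows, against 19.6% of all, among them 2 of the 3 windows of Mxi1, in the printed one 66 bases before the start site. None of the 3 windows of Mxi1 held CACGTG, and the window printed for it is among the 2 with ACGTG. The other form of the HIF core, GCGTG on either strand, was found in 4 of the 10, those of Mnt, Mxd1, Max and Mga, against 32.4% of all. A match of this kind describes the letters in the window and is no measurement of binding.

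Among the antagonists, Mxi1 had the smallest p-value. Its probe set (TC1900000749.mm.2) measured 11.57, 11.61 and 11.86 log2 units with inulin and TsSP, and 11.88, 11.46 and 11.43 with TsSP. Against these stood 9.02, 8.81 and 9.37 with inulin and 8.99, 9.06 and 9.09 with LPS alone. All 6 arrays with TsSP lay above all 6 without it, with a gap wider than the range within either set. The mean was 11.59 ± 0.25 with TsSP, against 9.05 ± 0.053 with LPS alone (SD, n = 3 each), and with TsSP added to inulin it was 11.68 ± 0.16, against 9.07 ± 0.28 with inulin. The rise was 5.82-fold over LPS alone (log2 difference 2.54, SE 0.17, limma adjusted p = 1.57e-06), 6.11-fold when TsSP was added to inulin (2.61, SE 0.17, adjusted p = 1.15e-06) and 6.19-fold for inulin and TsSP over LPS alone. Among the 9022 genes above background in at least 1 group, Mxi1 held place 50 by size of rise with TsSP over LPS alone.

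Mnt encodes the most widely expressed MAX-binding repressor. Its probe set (TC1100001050.mm.2) measured 8.96, 9.03 and 8.85 log2 units with inulin and TsSP and 9.03, 9.00 and 8.81 with TsSP, against 6.76, 6.30 and 7.20 with inulin and 6.14, 6.34 and 6.63 with LPS alone. The TsSP arrays were tightly grouped, and the arrays without TsSP were spread and close to background, 1 of 3 LPS arrays lying below it. Because of that array, the change over LPS alone is a bound: Mnt was at least 5.96-fold higher with TsSP (log2 difference of the measured means 2.58, SE 0.21, adjusted p = 5.54e-06) and at least 5.95-fold higher with inulin and TsSP. Against inulin with LPS, where 3 of 3 arrays were above background, the rise with inulin and TsSP was 4.57-fold (2.19, SE 0.21, adjusted p = 1.94e-05).

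Mxd4, a MAX-binding repressor linked to differentiation, measured 9.12, 8.86 and 8.78 log2 units with inulin and TsSP and 9.31, 9.02 and 9.30 with TsSP (TC0500002231.mm.2). It measured 7.49, 7.78 and 7.67 with inulin and 7.35, 7.33 and 7.82 with LPS alone. The arrays with and without TsSP did not overlap. The rise was 3.28-fold with TsSP over LPS alone (log2 difference 1.71, SE 0.17, adjusted p = 2.57e-05) and 2.42-fold with TsSP added to inulin (1.27, SE 0.17, adjusted p = 0.000233). The difference between these rises, the interaction, was -0.44 log2 units (SE 0.23, 95% limits -0.95 to 0.074, adjusted p = 0.926) and missed the threshold.

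Mxd1, whose product is the founding MXD repressor and rises in maturing myeloid cells, moved against the other antagonists. It measured 12.59, 12.69 and 12.51 log2 units with inulin and TsSP and 12.83, 12.55 and 12.62 with TsSP, against 13.51, 13.62 and 13.65 with inulin and 13.70, 14.06 and 13.85 with LPS alone (TC0600002641.mm.2). The 6 arrays with TsSP lay below the 6 without, and the inulin arrays lay between them and the LPS arrays. The fall was 2.30-fold with TsSP against LPS alone (log2 difference -1.20, SE 0.13, adjusted p = 5.31e-05), 2.42-fold with inulin and TsSP against LPS alone and 2.00-fold with TsSP added to inulin (-1.0, SE 0.13, adjusted p = 0.000212). Inulin against LPS alone gave -0.28 (SE 0.13, 95% limits -0.56 to 0.0063, adjusted p = 0.852), which did not pass, although the 3 inulin arrays lay below the 3 LPS arrays. Groups that do not overlap were seen in 10.2% of all genes in that comparison.

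Mxd3, an MXD member of proliferating cells, lay between 3.23 and 3.9 log2 units on all 12 arrays and below background on each of them (TC1300002053.mm.2). No fold is given for it.

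**Figure D2:**
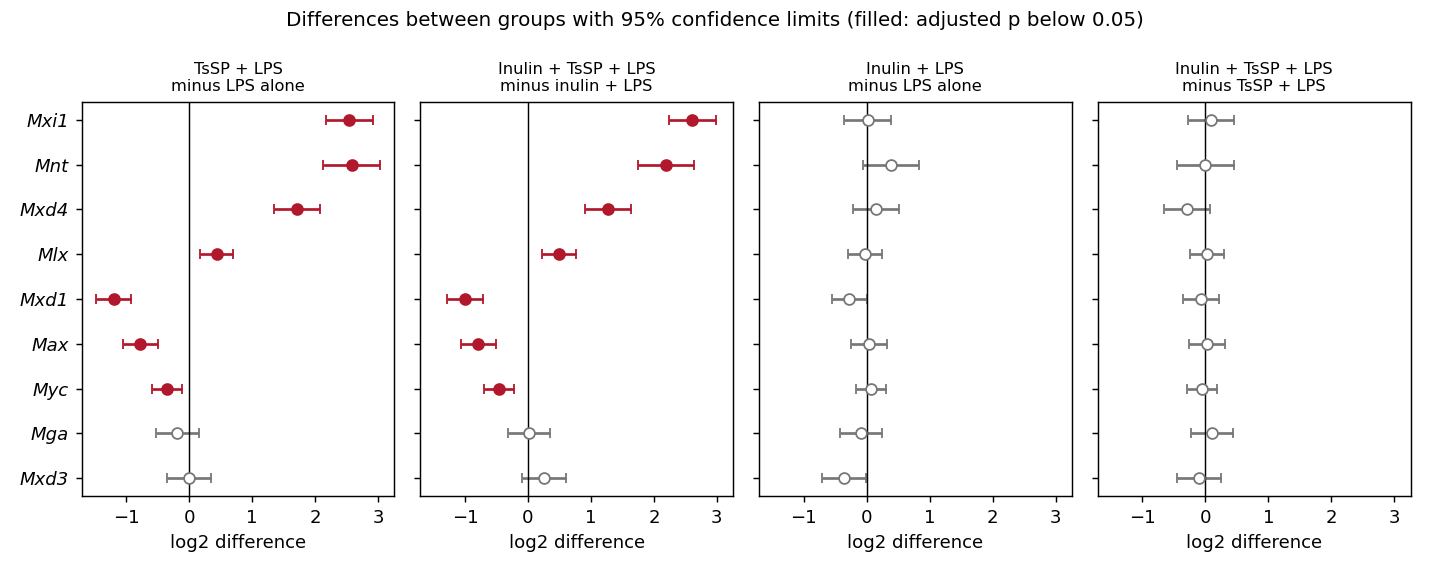
Log2 differences with 95% confidence limits from limma for the 9 genes in 4 comparisons, filled where the adjusted p is under 0.05. The 2 left panels add TsSP, to LPS alone and to inulin, and show the same 7 filled genes in the same order of sign; the 2 right panels add inulin and hold no filled gene.

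Max encodes the shared partner that MYC, the MXD proteins and MNT all need. It measured 13.46, 13.28 and 13.54 log2 units with inulin and TsSP and 13.22, 13.52 and 13.46 with TsSP, against 14.15, 14.22 and 14.27 with inulin and 14.09, 14.10 and 14.34 with LPS alone (TC1200001959.mm.2). The 6 arrays with TsSP lay below the 6 without. Max fell 1.71-fold with TsSP against LPS alone (log2 difference -0.77, SE 0.13, adjusted p = 0.00127) and 1.72-fold with TsSP added to inulin (-0.79, SE 0.13, adjusted p = 0.00120). The interaction was -0.012 (95% limits -0.41 to 0.39).

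Myc, the network's activator of growth genes, changed least of the genes that fell. It measured 10.99, 11.05 and 11.13 log2 units with inulin and TsSP and 11.12, 11.07 and 11.12 with TsSP, against 11.56, 11.63 and 11.38 with inulin and 11.51, 11.48 and 11.38 with LPS alone (TC1500000453.mm.2). The arrays with TsSP lay within a narrow range below all 6 without. The fall was 1.28-fold with TsSP against LPS alone (log2 difference -0.35, SE 0.11, 95% limits -0.59 to -0.11, adjusted p = 0.0434), 1.32-fold with inulin and TsSP against LPS alone (adjusted p = 0.0251) and 1.38-fold with TsSP added to inulin (-0.46, SE 0.11, adjusted p = 0.0116). The first of these calls was close to the threshold: it was lost without any single array other than inulin replicate 3, at adjusted p of 0.0508 to 0.121, and with the fit limited to the 6 arrays compared, at adjusted p = 0.107. The call for inulin and TsSP against LPS alone was lost without LPS replicate 1 or 2 or inulin and TsSP replicate 1 or 2, at adjusted p of 0.0634 to 0.0826, and in the fit limited to the arrays compared, at adjusted p = 0.101. Its call with TsSP added to inulin was lost without inulin replicate 2, at adjusted p = 0.0519, and in the fit limited to the arrays compared, at adjusted p = 0.0558.

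Mlx, the MAX-like partner of the glucose-sensing factors, measured 13.78, 13.70 and 13.73 log2 units with inulin and TsSP and 13.70, 13.66 and 13.78 with TsSP (TC1100001641.mm.2). It measured 13.28, 13.37 and 13.09 with inulin and 13.25, 13.46 and 13.13 with LPS alone, so the arrays with TsSP lay above the others. The rise was 1.35-fold over LPS alone (log2 difference 0.43, SE 0.12, adjusted p = 0.0296) and 1.40-fold when TsSP was added to inulin (0.49, SE 0.12, adjusted p = 0.0173). The call over LPS alone was lost when arrays were centred on their medians (0.39, adjusted p = 0.0541), with the fit limited to the 6 arrays (adjusted p = 0.0894) and without LPS replicate 1 or 3 or TsSP replicate 1, 2 or 3 (adjusted p 0.0590 to 0.107). With TsSP added to inulin it was lost without inulin replicate 3 or inulin and TsSP replicate 1 or 3 (adjusted p 0.0507 to 0.0711). For inulin and TsSP over LPS alone (1.37-fold, adjusted p = 0.0235) it was lost without LPS replicate 1 or 3 or any of the inulin and TsSP replicates (adjusted p 0.05005 to 0.0881), and with the fit limited to the arrays compared (adjusted p = 0.0878).

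Mga, which encodes a large MAX partner with a T-box domain that works in a Polycomb complex, measured 10.94, 11.10 and 10.72 log2 units with inulin and TsSP and 10.87, 10.62 and 10.94 with TsSP, against 10.77, 10.87 and 11.07 with inulin and 10.94, 10.85 and 11.21 with LPS alone (TC0200001782.mm.2). The 4 groups overlapped. Its difference with TsSP against LPS alone was -0.19 (95% limits -0.52 to 0.15, adjusted p = 0.489), and with TsSP added to inulin it was 0.018 (95% limits -0.32 to 0.35, adjusted p = 0.963).

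Inulin passed the test for none of the 9 genes in limma, either against LPS alone or added to TsSP, and for none of the 19505 genes (percent called 0% in each). At an unadjusted p under 0.05, 1 of the 9, Mxd3, which was below background, and 1143 of all genes differed between inulin and LPS alone; of inulin added to TsSP the counts were 0 and 971. The count stayed 0 under every alternative fit that was run. The 95% limits for inulin against LPS alone ran from -0.35 to 0.39 for Mxi1, from -0.24 to 0.32 for Max and from -0.17 to 0.30 for Myc, and for Mnt from -0.064 to 0.84. For inulin added to TsSP they ran from -0.28 to 0.46 for Mxi1, from -0.45 to 0.45 for Mnt, from -0.65 to 0.074 for Mxd4 and from -0.28 to 0.19 for Myc. The interaction was called for 0 of 9 genes and 0 of all (0 and 1089 at an unadjusted p under 0.05).

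In the order of the group means, the groups with TsSP stood together at one end for each of the 7 called genes. For Mxi1 and Mlx the means ran, from the highest, from inulin and TsSP through TsSP to the arrays without TsSP, and for Mnt and Mxd4 TsSP came before inulin and TsSP. For Max and Myc inulin was highest and LPS alone next, and for Mxd1 LPS alone was highest and inulin next. In each of these 7 genes the step between a group with TsSP and its neighbour without it passed the test, as TsSP against inulin (percent called 16.7%), TsSP against LPS alone, inulin and TsSP against inulin or inulin and TsSP against LPS alone. The steps within the pair of groups with TsSP and within the pair without it did not pass in any of the 7.

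The genes most like each called member over the 12 arrays were found by Pearson's r, among genes above background. The arrays form sets with and without TsSP, so r mostly reads that split and is a description. With Mxi1 these were Cerk, Sipa1l1, the glycogen synthase gene Gys1, Mlec and the mitophagy gene Bnip3, at r of 0.992 to 0.993. With Mnt they were B4galt6, Pdzk1ip1, Zswim6, Dynll1 and Chst12, at 0.988 to 0.992. With Mxd4 they were Svil, the cholesterol exporter gene Abca1, Pstpip1, Gmppa and Sipa1, at 0.980 to 0.982, and with Mlx they were Tmem167, the mitotic kinase gene Aurkb, Smox, Vhl and Cinp, at 0.969 to 0.974. With Mxd1 they were Nagpa, the apoptosis inhibitor gene Birc3, Pstpip2, the ubiquitin ligase gene Trim25 and Slc14a1, at 0.982 to 0.984. With Max they were Parp12, Pcgf5, Bcl2a1a, Katna1 and Lacc1, at 0.979 to 0.983, where Bcl2a1a has near-identical copies that the probes may also read. With Myc they were the antiviral gene Oas1b, Xkr8, the ribosome export gene Nmd3, Cdc37 and Ly86, at 0.979 to 0.991.

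Genes around the network were counted from lists that were chosen with earlier results of these data known. The median log2 difference of all genes with TsSP against LPS alone was 0.019, and 11% of all genes were called higher and 7.08% lower; among the 9022 genes above background in at least 1 group the median was 0.11, with 21.6% called higher and 13.3% lower. With TsSP added to inulin 8.66% were called higher and 7.99% lower, and among those 9022 genes 17% and 15.4%. The median log2 difference in that comparison was -0.0013 over all genes and 0.035 over those 9022. The balance of the calls over all genes depended on the scaling. TsSP against LPS alone gave 2144 genes higher and 1381 lower, but 1693 and 1631 after quantile normalization and 1890 and 1532 with arrays centred on their medians. For inulin and TsSP against LPS alone, 2010 higher and 1423 lower became 1632 and 1706 after quantile normalization and 1727 and 1675 after centring, and for TsSP added to inulin, 1689 higher and 1559 lower became 1621 and 1656, and 1535 and 1700.

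Of 21 measured partners, cofactors and paralogues, 2 rose and 1 fell with TsSP against LPS alone (median log2 difference -0.065, and 0.12 over the 16 above background in a group). Sin3a, which encodes a corepressor scaffold that MXD proteins and MNT recruit, rose 2.27-fold (log2 SE 0.15, adjusted p = 0.000241) and E2f6, whose product works with MGA, rose 1.38-fold (adjusted p = 0.0291). Zbtb17, which encodes MIZ1, the zinc-finger partner through which MYC represses genes, fell 2.03-fold (adjusted p = 0.00387). Added to inulin, TsSP gave 2 rises, of Sin3a at 2.21-fold and E2f6 at 1.38-fold, and 3 falls, of Zbtb17 at 1.83-fold, the histone exchange gene Ep400 at 1.39-fold and the corepressor gene Sin3b at 1.32-fold. These 5 calls numbered 2 with only the groups compared and 2 without inulin replicate 1 or 2 or inulin and TsSP replicate 1 or 3, and 3 without inulin and TsSP replicate 2. The paralogues Mycn and Mycl and the ChREBP gene Mlxipl lay below background with TsSP and with LPS alone.

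Of 19 measured genes of MYC protein turnover and phosphorylation, 18 lay above background in a group. With TsSP against LPS alone 4 (21.1%) rose and 4 (21.1%) fell (median 0.22). Among all genes above background in a group, 21.6% were called higher and 13.3% lower. The survival kinase gene Pim1 fell 2.54-fold (adjusted p = 1.16e-05), while its relatives Pim3 and Pim2 rose 1.58-fold and 1.37-fold (adjusted p = 0.0134 and 0.0247). Fbxw7, which encodes the ubiquitin ligase subunit that marks MYC for degradation, fell 1.54-fold (adjusted p = 0.0255). Usp28, which encodes a deubiquitinase that opposes it, was above background on 1 of 3 LPS arrays and at least 1.68-fold higher with TsSP (adjusted p = 0.0349). The Usp28 values of these groups overlapped, and Usp28 was not called with TsSP added to inulin. The phosphatase subunit gene Ppp2r5a fell 1.80-fold, the SUMO protease gene Senp1 fell 1.34-fold and the mitotic kinase gene Plk1 rose 1.40-fold. With TsSP added to inulin 2 (10.5%) rose, Pim2 and Plk1 at 1.40-fold and 1.33-fold. In that comparison 5 (26.3%) fell, Pim1 at 2.51-fold, Fbxw7 at 1.98-fold, Ppp2r5a at 1.70-fold, Trim32 at 1.59-fold and Senp1 at 1.39-fold. Among all genes above background in a group, 17% were called higher there and 15.4% lower. The 8 calls against LPS alone numbered 5 after quantile normalization, 4 with only the groups compared, 5 without LPS replicate 1 or TsSP replicate 2 and 3 without LPS replicate 2. The 7 calls when TsSP was added to inulin numbered 4 with only the groups compared, 4 without inulin and TsSP replicate 1 and 3 without inulin replicate 1 or 3.

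Of 63 measured genes known to be activated by MYC, 61 lay above background in a group. With TsSP against LPS alone 15 (23.8%) fell and 4 (6.35%) rose (median -0.16). Among all genes above background in a group, 13.3% were called lower and 21.6% higher. With TsSP added to inulin 21 (33.3%) fell and 3 (4.76%) rose (median -0.23), against 15.4% and 17% of genes above background in a group. Among those that fell were the ribosome assembly genes Wdr43, which fell 2.24-fold (log2 SE 0.10, adjusted p = 1.46e-05), Utp20 2.14-fold, Rrp9 2.01-fold, Rrp12 1.88-fold, Noc4l 1.60-fold and Rrs1 1.57-fold. The cell cycle gene Ccnd2 fell 2.15-fold (adjusted p = 0.000584), the RNA polymerase I subunit gene Polr1a 1.54-fold and the amino acid transporter gene Slc7a5 1.56-fold. The 4 that rose were Fosl1, an AP-1 subunit gene, at 3.04-fold (adjusted p = 5.50e-05), Odc1, the gene of the first enzyme of polyamine synthesis, at 2.01-fold (adjusted p = 5.05e-05), the lactate dehydrogenase gene Ldha at 1.89-fold and the ribosomal RNA transcription factor gene Ubtf at 1.57-fold. The 3 that rose when TsSP was added to inulin were Fosl1 at 2.47-fold, Odc1 at 2.02-fold and Ldha at 1.88-fold. The well-known targets Ncl, Npm1, Cad and Cdk4 did not pass, with differences of -0.26, -0.029, 0.43 and 0.28 against LPS alone.

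Of 16 genes known to be repressed by MYC, 2 rose and 3 fell with TsSP against LPS alone (median 0.063, and 0.079 over the 9 above background in a group). Ndrg1, a stress-induced gene also in the HIF list, rose 1.98-fold (adjusted p = 8.49e-05), and the cell cycle inhibitor gene Cdkn2c passed the test as higher while below background in both groups. The DNA damage response genes Gadd45a and Gadd45b fell 3.01-fold and 2.67-fold (adjusted p = 8.96e-05 and 5.75e-06), and the zinc-finger factor gene Klf6 fell 1.67-fold. Cdkn1a, the gene of the inhibitor p21, gave -0.31 (adjusted p = 0.0580), and with TsSP added to inulin it fell 1.32-fold, along with Gadd45a at 3.70-fold, Gadd45b at 3.39-fold and Klf6 at 1.58-fold; Ndrg1 rose 2.14-fold there and Cdkn2c was again called below background.

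**Figure D3:**
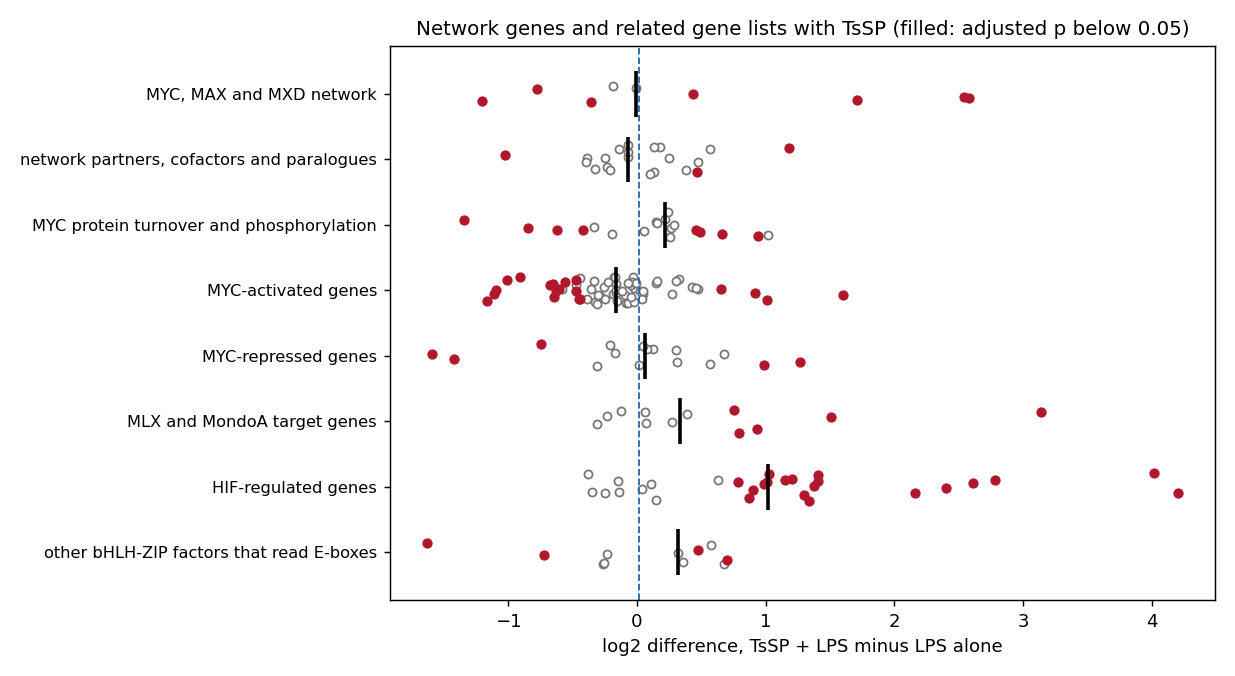
Log2 differences of TsSP with LPS minus LPS alone for the 9 network genes and each measured gene of 7 related lists, 1 point per gene, filled where the adjusted p is under 0.05; black bars are list medians and the dashed line is the median of all genes, 0.019. The HIF list has its median at 1.02 and no filled point below 0, and the MYC-activated list has its median at -0.16 with 15 filled points below 0 and 4 above.

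Of 12 genes known as targets of MLX with MondoA or ChREBP, 5 rose and 0 fell with TsSP against LPS alone (median 0.33, and 0.76 over the 9 above background in a group). Control of these genes by MLX in these cells was not tested. Klf10, a transcription factor gene, rose 8.81-fold (adjusted p = 2.21e-07), Txnip, which encodes an inhibitor of glucose uptake, 1.91-fold (adjusted p = 0.000708), and the fatty acid synthesis genes Fasn and Acaca 1.73-fold and 1.69-fold. Arrdc3 was above background on 1 of 3 LPS arrays and at least 2.51-fold higher (adjusted p = 0.000862). Arrdc4, a close readout of MondoA in other cells, gave 0.063 (adjusted p = 0.826). With TsSP added to inulin 2 rose, Klf10 at 6.43-fold and Txnip at 1.73-fold, and 0 fell.

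Mxi1 is itself a known target of HIF, but its control by HIF in these cells was not tested. A list of 28 genes held that response and also factors and regulators of the pathway, among them Hif1a, Epas1, Arnt, Vhl and Hif1an. Of these 28, 19 (67.9%) rose and 0 fell with TsSP against LPS alone (median 1.02). With TsSP added to inulin 19 rose and 0 fell (median 1.05). Bnip3 rose 18.4-fold, the oxygen sensor gene Egln1 6.88-fold, the transcription factor gene Bhlhe40 6.12-fold and Hif1a itself 2.59-fold with TsSP against LPS alone (adjusted p = 1.89e-08, 1.91e-07, 4.15e-06 and 4.18e-06). Car9, Egln3 and Adm of this list were below background with TsSP and with LPS alone, and P4ha1 and Arnt gave 0.15 and 0.11 and did not pass. Vegfa gave -0.14 (SE 0.67) and was above background on 2 of 3 arrays with TsSP and 3 of 3 with LPS alone. Hif1an, Epas1 and Rora gave -0.15, 0.041 and 0.63 and, like Vegfa, did not pass. Earlier results of these data had shown such genes higher with TsSP, so this count is not independent evidence of the direction.

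Of 11 measured bHLH-ZIP and related factors that also bind E-boxes, 2 rose and 2 fell with TsSP against LPS alone (median 0.32, and 0.030 over the 8 above background). Usf2 rose 1.62-fold and Tfe3 1.39-fold (adjusted p = 0.0123 and 0.00894), while Mitf, of the same family as Tfe3, fell 3.09-fold (adjusted p = 2.35e-06) and the clock gene Arntl fell 1.65-fold (adjusted p = 0.00111). With TsSP added to inulin Usf2 rose 1.73-fold and Tfe3 1.41-fold, and 4 were called lower, Mitf at 3.11-fold, Arntl at 1.93-fold, Usf1 at 1.39-fold and Tfec. In no group was Tfec above background on every array, so no fold is given for it.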

How the data were processed

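RNA from RAW 264.7 cells was extracted on RNeasy columns, biotin-labelled and hybridised, per the labels' protocols, to Affymetrix mouse arrays. The deposited table holds 1 log2 value per probe set and array; the log base is inferred from the values (1.32 to 18.9), and for the authors' background correction, normalization and software, the sources used here give nothing. Any compression of dim or bright signals by those steps carries into the folds. Values were used as deposited.

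Of 28846 probe sets, 19572 had 1 gene symbol in the platform annotation and 0 had several. All 19572 were matched by gene number to RefSeq (GRCm38.p6), and the highest-mean probe set stood for each of 55 genes with several, leaving 19505 genes. A gene was above background where it exceeded the brightest of 23 background probes on an array. Where the dimmer group had an array below background, a lower bound of the fold is printed, with each of the dimmer arrays raised to its background where below it.

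One limma model (lmFit and eBayes, limma 3.58.1, R 4.3.3) with 4 group means pooled the spread over 12 arrays (8 residual and 3.35 prior degrees of freedom). P-values are two-sided, adjusted by Benjamini and Hochberg over 19505 genes per contrast, threshold 0.05. The contrasts were 6, the interaction included, with TsSP against inulin added for the order of means. The procedure was tested on simulated data. Plots used matplotlib 3.10.9.

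The members and gene lists were chosen with earlier results of these data known. Named genes were the 9 members, of each list up to 4 called genes per direction by smallest p in TsSP against LPS alone (all where 5 or fewer), and the 5 genes most like each called member, leaving out predicted and small RNA genes. Other genes named were chosen after their values were seen: Utp20, Rrp12, Rrs1, Polr1a, Slc7a5, Ncl, Npm1, Cad, Cdk4, Cdkn1a, Arrdc4, Mycn, Mycl, Mlxipl, Car9, Egln3, Adm, P4ha1, Arnt, Vegfa, Hif1an, Epas1, Rora, and those named only with TsSP added to inulin. Listed genes with no probe set of their name are not analysed here. Alternatives were quantile normalization, median centring, a mean-variance trend, a robust prior, genes above background only, the mean of probe sets, only the groups compared, a replicate block and leaving out each array.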

Additional observations from a re-analysis of the deposited data

How the results depend on the processing

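Over 20 alternatives per comparison, the calls of Mxi1, Mnt, Mxd4, Mxd1 and Max in each of the 3 comparisons with a TsSP effect kept their direction and stayed under the threshold. Of 420 values for calls of all 7 genes, 0 changed sign and 37 missed the threshold, all of Myc or Mlx. Of 645 values for differences that were not called, 0 passed the threshold and 43 changed sign. Network genes called numbered 5 to 7 with 1 array left out for TsSP against LPS alone and for inulin and TsSP against LPS alone, 6 to 7 for TsSP added to inulin, and 7 in the F test.

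Some list counts moved by over 1.5 times. For partners and cofactors, calls against LPS alone numbered 3, and 6 with a mean-variance trend; when TsSP was added to inulin they numbered 5, but 2 with only the groups compared, 3 with the replicate block, and 2 to 6 with 1 array left out (2 without inulin replicate 1 or 2 or inulin and TsSP replicate 1 or 3, and 3 without inulin and TsSP replicate 2). For turnover and phosphorylation genes, 8 calls against LPS alone became 5 after quantile normalization, 5 with the replicate block, 4 with only the groups compared and 3 to 8 with 1 array left out; 7 calls when TsSP was added to inulin became 4 with only the groups compared and 3 to 7 with 1 array left out (3 without inulin replicate 1 or 3 and 4 without inulin and TsSP replicate 1). The MLX list went to 4 calls with a mean-variance trend, against 2, when TsSP was added to inulin. The cause was not tested.

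Replicate numbers did not pair the arrays: deviations of same-numbered arrays from their group means correlated at r = -0.094 to 0.10, and 3 of 12 arrays correlated best with their own number. With the number as a block, 3203 genes were called for TsSP against LPS alone, against 3525, and Myc was called neither there (adjusted p = 0.0779) nor for inulin and TsSP against LPS alone (adjusted p = 0.0509). Signal near background limits Mnt on arrays without TsSP and leaves Mxd3 unmeasured.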
